A study of Mus musculus with 31 samples.

Results

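The genes described here are 10 X-linked genes of the mouse that earlier studies list as escape genes, that is, genes still expressed from the inactive X chromosome: Kdm6a, Kdm5c, Med14, Zfx, Ddx3x, Eif2s3x, Utp14a, 1810030O07Rik, Pbdc1 and 5530601H04Rik. They were taken by symbol from a list, not by any value measured here, and are 10 of 1058 X-linked genes and of 24470 genes in all in the exon table. All 10 had exon reads, and 5 of them (Kdm6a, Kdm5c, Med14, Ddx3x and 1810030O07Rik) were also among the 205 X-linked genes with reads assigned to a parental X chromosome.

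RNA was sequenced from untreated female dermal fibroblasts of a CAST/Ei x 129/Sv/Jae hybrid, in 3 groups of 2 libraries that the protocol calls biological replicates. The groups were wild-type cells (WT), cells of a line named XaWT XiΔXist, which lost Xist from the inactive X after inactivation was complete while the active X was left wild type (line 1), and cells of another line with the same genotype (line 2). Each deleted group is 1 cell line, so the deletion and any other difference between a line and WT cannot be told apart. The authors' lists of classed X-linked sites give where chromatin was open by ATAC-seq and where BRG1, the catalytic subunit of SWI/SNF, was bound.

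In female mammals the noncoding RNA Xist coats one X chromosome and silences most of its genes. Escape genes stay active on that chromosome, usually at a lower level than on the active X. Several of them have a related copy on the Y chromosome, and many act in chromatin, transcription or translation.

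Xist RNA matched the labels. Xist, the deleted gene, had 633 and 429 CPM (read counts for every 1e+06 of the scaled library) in the WT libraries, 1.08 and 0.273 in line 1, and 0.969 and 0.282 in line 2. Its log2 fold change in line 1 was -9.85 (SE 0.47, adjusted p = 0.000276) and that in line 2 was -9.88 (SE 0.46, adjusted p = 0.00178), by edgeR's quasi-likelihood test with Benjamini-Hochberg adjustment over 12910 genes, which is the test behind every adjusted p on total RNA below. The exon counts used came to 3.81 to 7.06 M per library (M, 1e+06 counts) and the allele reads to 13983 to 26645, with replicate 1 the shallower in every group. Of 8 Y-linked genes, among them the copies of Kdm5c, Kdm6a, Ddx3x, Eif2s3x and Zfx, 6 had no count in any library and the highest count of the others was 1. The summed level of 12 fibroblast markers was 5102 to 8149 CPM. The sums were 6.88 to 10.4 CPM for 6 keratinocyte, 3.04 to 14.6 for 6 leukocyte, 2.43 to 8.32 for 4 endothelial and 0 to 1.01 for 5 melanocyte and Schwann cell markers. The leukocyte sum was highest in line 1 (7.10 and 14.6, against 3.04 and 4.55 in WT) and the endothelial sum lowest there (2.43 and 3.28, against 7.33 and 8.32), and the part of either in the results on line 1 was not tested. In bulk RNA, fewer cells of a type and less RNA per cell cannot be told apart.

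The starts of most of these genes lay at sites that the authors class as Biallelic. The lists place each X-linked site in the class Biallelic, Monoallelic or XiRestored. They hold coordinates only, on mm10, pooled over the samples whose labels name them (WT and line 1, with WT embryonic fibroblasts for accessibility), so no error can be given. A Biallelic accessible site lay within 2 kb of the start of 8 of the 10 genes, against 1.13% of all 1058 X-linked genes and 2.65% of the 415 X-linked genes with tested expression, these genes included. These 8 sites were 29.6% of the 27 Biallelic accessible sites on the chromosome. No Monoallelic accessible site lay within 10 kb of a start or in the body of any of the 10 genes, whereas 50.6% of the 415 genes had one.

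Among the regulators of chromatin and transcription, Kdm6a, a demethylase of histone H3 lysine 27, had a Biallelic accessible site over its start, at chrX:18161869-18163101. Its body held 10 Biallelic BRG1 sites, between 2480 and 36849 bases downstream of the start. The body also held 1 Monoallelic BRG1 site, 66863 bases downstream. Kdm5c, a demethylase of histone H3 lysine 4, had an accessible Biallelic site at chrX:152232696-152233016 that ended 211 bases upstream of its start. Its only BRG1 site within 10 kb of the start or in the body was of the class XiRestored, 32310 bases into the gene. Med14, a scaffold subunit of Mediator, had a Biallelic accessible site over its start at chrX:12761706-12762524 and 4 Biallelic BRG1 sites in its body or at its far end.

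Zfx, a zinc finger activator of transcription, differed from the others in having no accessible site of any class within 10 kb of the start of its counted transcript or in its body. It held 2 Biallelic BRG1 sites, at 4810 and 17670 bases downstream, and 1 XiRestored BRG1 site in the body and another upstream. The RefSeq gene reaches 27.2 kb further upstream than the counted transcript, to position 94150645, and from there a Biallelic BRG1 site began 135 bases and a Biallelic accessible site 1728 bases upstream. The stretch of 38.1 kb between that RefSeq end and Eif2s3x held 3 of the 27 Biallelic accessible sites and 7 of the 60 Biallelic BRG1 sites.

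Of the genes of translation and ribosome assembly, Ddx3x, an RNA helicase, had a Biallelic accessible site over its start at chrX:13280648-13281295, with Biallelic BRG1 sites on either side of it. Eif2s3x, the subunit of initiation factor eIF2 that binds GTP, had a Biallelic accessible site that ended 255 bases upstream of its start, at chrX:94212906-94213366. Utp14a, a component of the small-subunit processome that matures ribosomal RNA, had one that ended 5 bases upstream of its start, at chrX:48256333-48256929. Neither Eif2s3x nor Utp14a had a BRG1 site of any class within 10 kb of the start or in the body.

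Pbdc1 and the long noncoding RNA 5530601H04Rik point away from each other, with starts 9.63 kb apart, and their starts belonged to different classes. The start of 5530601H04Rik lay in a Biallelic accessible site, chrX:105070029-105070420, whereas the start of Pbdc1 lay in an XiRestored accessible site, chrX:105079610-105080154, with an XiRestored BRG1 site 738 bases downstream. The gene 1810030O07Rik, protein-coding by RefSeq, begins just beyond the end of Med14 on the same strand. A Biallelic accessible site covered its start, chrX:12673158-12673779, and 1 Biallelic BRG1 site, chrX:12673752-12675392, covered all 1431 bases between the RefSeq extents of the pair.

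The promoter sequences of both adjacent pairs are shown because the starts of 1 pair belong to different classes and the other pair holds both genes called below without a replicate term. They are RefSeq windows on GRCm38.p6, the assembly of mm10, of 250 bases before and 50 after the start, read 5′ to 3′ on the gene's own strand. Capitals mark matches to the motifs searched, on either strand: CCGGAAG for ETS factors, AAGATGGC for YY1, GGGCGG for SP factors, TGACGTCA for CREB, TATAAA for the letters of the core promoter box and CACGTG for E-box factors.
1810030O07Rik: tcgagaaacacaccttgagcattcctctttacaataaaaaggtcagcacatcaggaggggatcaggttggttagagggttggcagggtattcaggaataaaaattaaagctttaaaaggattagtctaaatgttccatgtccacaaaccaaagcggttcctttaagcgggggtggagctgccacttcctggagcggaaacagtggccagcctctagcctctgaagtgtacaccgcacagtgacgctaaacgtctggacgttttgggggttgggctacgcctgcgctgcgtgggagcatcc
Med14: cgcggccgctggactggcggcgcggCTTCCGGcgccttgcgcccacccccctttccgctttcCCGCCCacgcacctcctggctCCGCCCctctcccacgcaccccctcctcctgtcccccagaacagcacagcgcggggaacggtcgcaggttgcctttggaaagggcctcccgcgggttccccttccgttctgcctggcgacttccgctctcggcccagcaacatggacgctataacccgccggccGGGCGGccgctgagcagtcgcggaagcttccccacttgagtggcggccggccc
5530601H04Rik: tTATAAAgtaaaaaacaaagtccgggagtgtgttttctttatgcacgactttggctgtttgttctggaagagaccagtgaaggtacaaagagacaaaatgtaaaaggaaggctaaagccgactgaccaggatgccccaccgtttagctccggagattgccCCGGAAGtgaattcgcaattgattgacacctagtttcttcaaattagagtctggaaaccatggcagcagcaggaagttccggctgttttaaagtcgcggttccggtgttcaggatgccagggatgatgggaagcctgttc
Pbdc1: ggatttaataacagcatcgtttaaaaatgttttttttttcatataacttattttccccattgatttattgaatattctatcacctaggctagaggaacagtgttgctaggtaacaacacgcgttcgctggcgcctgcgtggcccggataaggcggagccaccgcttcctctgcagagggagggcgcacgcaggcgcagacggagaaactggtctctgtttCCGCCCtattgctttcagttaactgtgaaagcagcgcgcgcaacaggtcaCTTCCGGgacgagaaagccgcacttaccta
The windows are chrX:12673590-12673889 (minus strand) for 1810030O07Rik, chrX:12761924-12762223 (minus) for Med14, chrX:105070075-105070374 (minus) for 5530601H04Rik and chrX:105079506-105079805 (plus) for Pbdc1. All 300 bases of the windows of Med14 and 5530601H04Rik and 190 bases of that of 1810030O07Rik lay in a Biallelic accessible site, and 196 bases of that of Pbdc1 in an XiRestored one.

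The 1810030O07Rik window held none of the 6 motifs, the Med14 window 1 ETS and 3 SP matches, the 5530601H04Rik window 1 ETS match and 1 TATAAA (at position -249 from the start, the far edge of the window), and the Pbdc1 window 1 ETS and 1 SP match. Over all 10 genes, matched by symbol in the RefSeq table, the SP motif was in the windows of 7, against 38.2% of 27025 genes with a window and 68.2% of 337 expressed X-linked genes. The ETS motif was in 3, against 9.93% and 14.5%, and the YY1 motif in 2, Kdm5c and Eif2s3x, against 3.19% and 7.12%. TATAAA and the E-box were each in 1, against 15.7% and 8.09% of all genes, and the CREB motif was in none, against 2.03%. No match overlapped another. The median window of the 10 genes held 20.5 CpG dinucleotides, against 17 for the expressed X-linked genes and 7 for all genes. A match describes letters and is not a binding site.

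**Figure D1:**
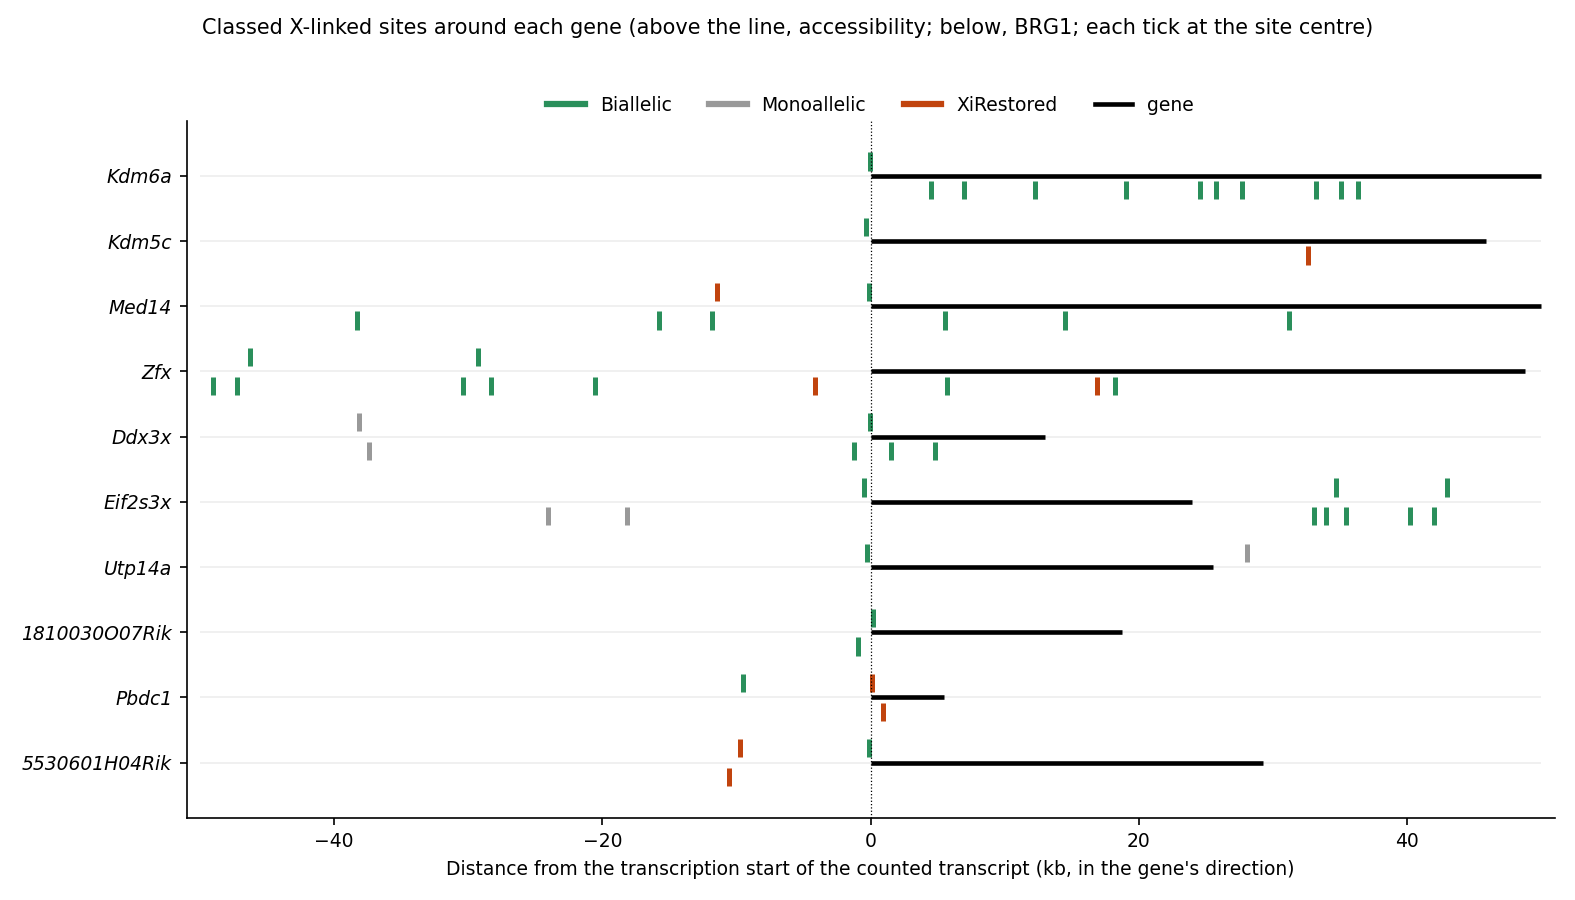
Classed sites within 50 kb of each gene's start. The horizontal axis is distance in kb in the direction of the gene, ticks above a line are accessible sites, ticks below are BRG1 sites, colour gives the authors' class and black bars are the counted transcripts. Green Biallelic accessible ticks stand at or just before the start of 8 genes, the start of Pbdc1 carries an XiRestored tick instead, and Kdm6a has 10 Biallelic BRG1 ticks in its body.

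Across the 10 genes the RNA level per length, as RPKM computed from the deposited mRNA lengths, spanned from 72.7 ± 8.16 (SD, n = 2) for Ddx3x to 3.01 ± 0.528 for 5530601H04Rik in WT. Below Ddx3x came Med14 at 41.1 ± 4.42, Kdm5c at 39.3 ± 2.58 and Utp14a at 36.3 ± 5.54, neighbours that did not differ beyond their spread. Kdm6a at 21.0 ± 0.817 and 1810030O07Rik at 19.7 ± 0.657 did not differ beyond it either, nor did Pbdc1 at 16.9 ± 1.80 and Zfx at 16.4 ± 2.14, and Eif2s3x had 10.1 ± 1.15. The median of the 10 genes was 20.4 RPKM in WT, 28.3 in line 1 and 23.0 in line 2, against 11.8, 12.2 and 12.3 for the 415 X-linked genes tested. The higher median in line 1 came from 1810030O07Rik (31.7) and Pbdc1 (24.8) passing Kdm6a (21.2). The median log2 fold change of the 10 genes there was only 0.08.

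Without a replicate term, 1 of these 10 genes passed the test of total RNA in line 1 and 0 in line 2. The background was 14.3% of 12910 genes called in line 1 and 3.58% in line 2. With replicate number as a block, 3 of 10 passed in line 1, against 32.4% of all genes, and 2 of 10 in line 2, against 12.1%. The median log2 fold change of the 10 genes was 0.08 in line 1 and 0.06 in line 2, against 0.01 for all genes in each line, and 0.02 and -0.02 for the 415 X-linked genes. At an unadjusted p under 0.05 there were 3 of the 10 in line 1 and 2 in line 2. Both lines were compared with the same WT libraries, so their values below are not independent of each other.

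The regulators of chromatin and transcription gave no call against WT, with or without the replicate block. Kdm6a had 121 and 128 CPM in the WT libraries, 120 and 131 in those of line 1 and 98.4 and 110 in those of line 2. Line 1 overlapped WT, while both line 2 libraries were below both WT libraries, as were those of 23.9% of all genes. The log2 fold change of Kdm6a in line 1 was 0.01 (SE 0.12, adjusted p = 0.974) and that in line 2 was -0.26 (SE 0.12, adjusted p = 0.405).

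Kdm5c had 452 and 412 CPM in the WT libraries, 455 and 383 in those of line 1 and 484 and 417 in those of line 2. Med14 had 260 and 303 CPM in the WT libraries, 269 and 355 in those of line 1 and 276 and 308 in those of line 2. Zfx had 104 and 125 CPM in the WT libraries, 88.4 and 129 in those of line 1 and 116 and 132 in those of line 2. All these groups overlapped, and the 3 genes had log2 fold changes between -0.08 and 0.15, with 95% intervals that reached furthest for Zfx in line 2, to 0.60. For Med14 the interval was -0.27 to 0.57 in line 1. An autosomal gene similar to Zfx, Zfa-ps, had 4.87 to 10.6 CPM and may share reads with Zfx.

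Among the genes of translation and ribosome assembly, Ddx3x had 306 and 358 CPM in the WT libraries, 288 and 356 in those of line 1 and 323 and 336 in those of line 2. Eif2s3x had 33.3 and 39.2 CPM in the WT libraries, 33.0 and 37.5 in those of line 1 and 33.2 and 34.5 in those of line 2. Both genes overlapped between all groups, with log2 fold changes of -0.04 and -0.01 for Ddx3x and -0.04 and -0.10 for Eif2s3x, in line 1 and line 2. Utp14a had 78.6 and 97.6 CPM in the WT libraries, 86.8 and 108 in those of line 1 and 56.0 and 68.8 in those of line 2. Line 1 overlapped WT, and both line 2 libraries lay below every library of the other groups. The log2 fold change of Utp14a in line 2 was -0.50 (SE 0.19, adjusted p = 0.294) against WT and -0.64 (SE 0.19, adjusted p = 0.0825) against line 1, and the latter was -0.62 with adjusted p = 0.0463 without the filter on low counts. With the replicate block Utp14a passed in both comparisons (adjusted p = 0.0134 and 0.00213). Utp14b, an autosomal relative of Utp14a, had 85.4 and 90.2 CPM in the WT libraries, 124 and 189 in those of line 1 and 79.8 and 106 in those of line 2.

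The 3 genes with the highest estimates were 1810030O07Rik, Pbdc1 and 5530601H04Rik, each with both libraries of both lines above both WT libraries. Taken 1 line at a time, 25.4% of all genes lay above WT in line 1 and 24.9% in line 2. The share of all genes above WT in both lines at once was not computed. In line 1, 25.6% of all genes lay below WT, where none of the 10 did. For 1810030O07Rik the values were 51.3 and 53.8 CPM in the WT libraries, 73.8 and 95.1 in those of line 1 and 63.7 and 66.4 in those of line 2. It rose in line 1, by a log2 fold change of 0.69 (SE 0.16, 95% interval 0.30 to 1.07, adjusted p = 0.0363), and its value in line 2 was 0.31 (SE 0.16, adjusted p = 0.485). The difference between the lines was -0.38 (SE 0.16, adjusted p = 0.204, and 0.0437 with the replicate block). The call in line 1 was lost with WT and line 1 fitted alone (adjusted p = 0.0897), and without WT replicate 1 (0.210), WT replicate 2 (0.188) or line 1 replicate 2 (0.0688).

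Pbdc1 had 48.0 and 41.3 CPM in the WT libraries, 71.4 and 60.1 in those of line 1 and 63.0 and 51.3 in those of line 2. Its log2 fold change in line 1 was 0.56 (SE 0.18, adjusted p = 0.0939) and that in line 2 was 0.36 (SE 0.18, adjusted p = 0.461). Its neighbour 5530601H04Rik had 9.85 and 12.6 CPM in the WT libraries, 15.9 and 24.8 in those of line 1 and 17.9 and 20.4 in those of line 2. The log2 fold change of 5530601H04Rik in line 1 was 0.86 (SE 0.28, adjusted p = 0.101) and that in line 2 was 0.76 (SE 0.28, adjusted p = 0.285). In line 1 the estimate for 5530601H04Rik was 1.12 with adjusted p = 0.0277 without line 1 replicate 1. With the replicate block the adjusted p of Pbdc1 in line 1 was 0.00623, and that of 5530601H04Rik was 0.0114 in line 1 and 0.0397 in line 2. The start of Pbdc1 is the one in an XiRestored accessible site, whereas those of 5530601H04Rik and 1810030O07Rik lie in Biallelic ones. A link between site class and RNA was not tested.

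**Figure D2:**
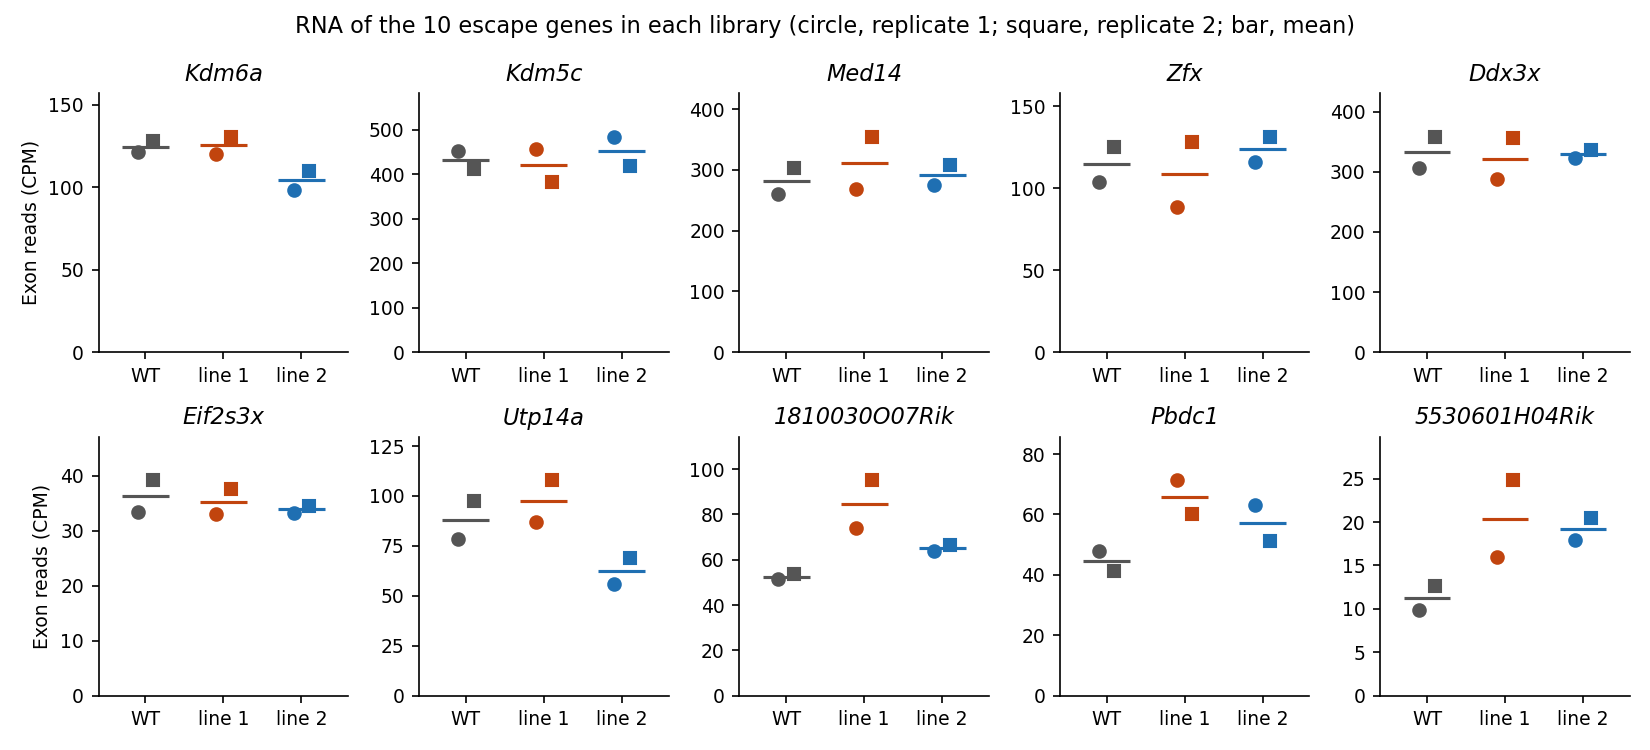
Total RNA of each gene in CPM by group, with each library as a symbol and the mean as a bar; axes start at 0. 1810030O07Rik, Pbdc1 and 5530601H04Rik lie above WT in both libraries of both lines, Kdm6a and Utp14a lie below WT in line 2, and the groups of the other 5 genes overlap.

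**Figure D3:**
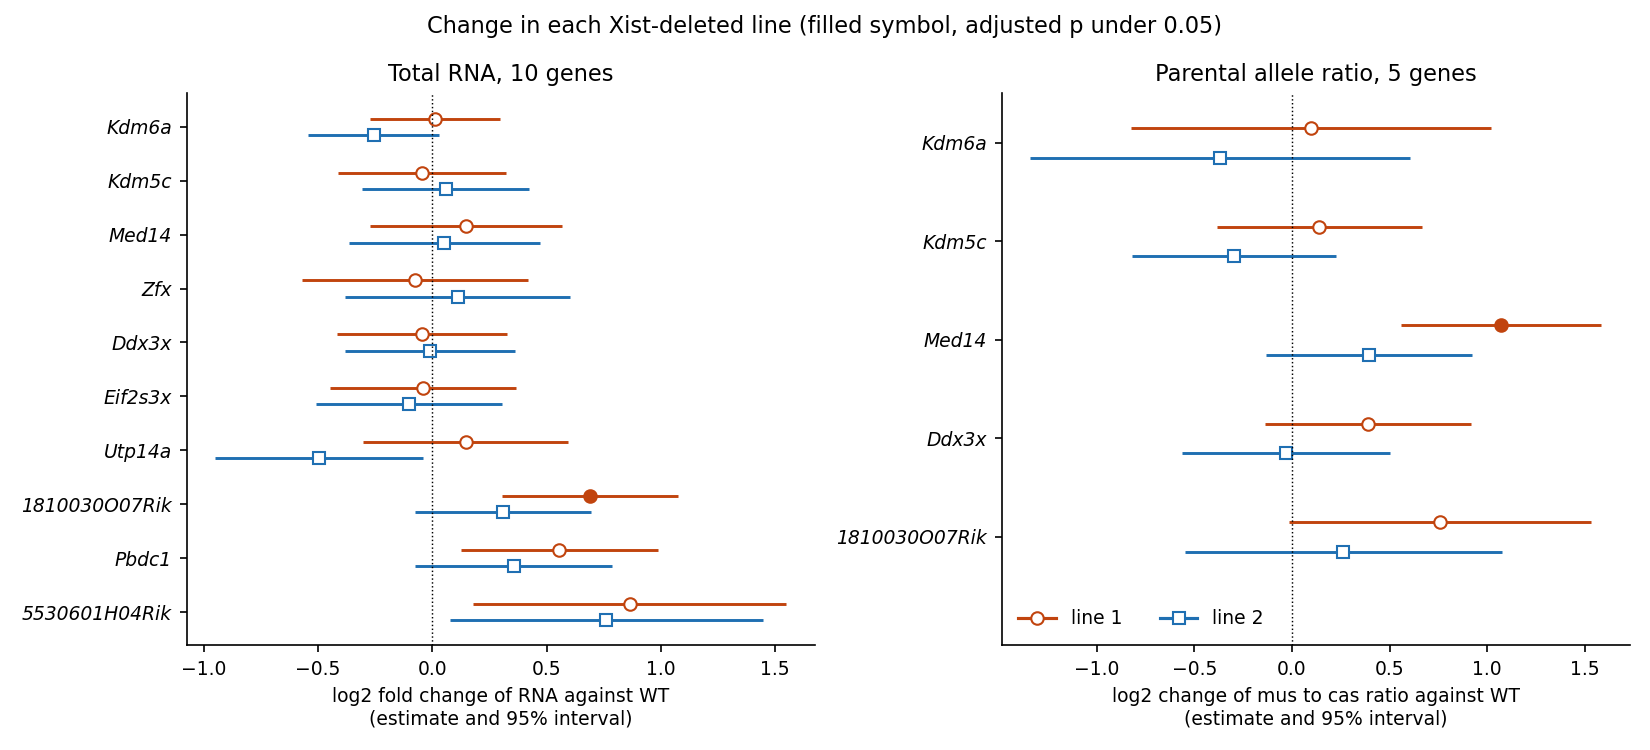
Log2 fold change of total RNA (left) and log2 change of the mus to cas read ratio (right) against WT, with 95% intervals; filled symbols have an adjusted p under 0.05. The filled symbols, from the fits without the replicate block, are 1810030O07Rik at 0.69 for RNA and Med14 at 1.07 for the allele ratio, both in line 1.

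Without the replicate block, no gene of the 10 passed the test between the lines, where 12.6% of all genes did. With the replicate block 3 of 10 passed, Utp14a, 1810030O07Rik and Kdm6a (-0.27, adjusted p = 0.0480), against 27.2% of all genes. Their log2 differences, line 2 minus line 1, ranged from -0.64 for Utp14a to 0.19 for Zfx, with a median of -0.10, and 1 of them, Utp14a, had an unadjusted p under 0.05.

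Reads over bases that differ between the parents show from which X the RNA came. The deposited reads name the alleles cas and mus, taken here as CAST/Ei and 129/Sv/Jae. Mus reads were 5.46 to 7.25% of all allele reads of X-linked genes per library, so the mus X is the one with few reads in all 6 libraries. The 5 genes with allele reads stood out from that: they held 26.5 and 26.0% of all mus reads in the WT libraries, but 2.64% of all cas reads in each. In WT their median mus share was 40.3%, against 1.28% for the other 146 X-linked genes with at least 20 allele reads in every library. The authors class all 5 as Biallelic, along with 13 of those 146 genes, and the other 133 as Monoallelic. Over all 18 Biallelic genes, these 5 included, the median WT mus share was 37.7% and the lowest 25.0%. The median of the 5 genes was thus near that of their class. Of the Biallelic genes, 3 had more mus than cas reads in all 6 libraries: Morf4l2, Rbbp7 and Slc25a5. Whether reads of 1 parent map more readily than those of the other was not tested, so a mus share is not an exact level. A high mus share is what earlier studies chose these genes for, so it is a description. Eif2s3x, Utp14a, Zfx, Pbdc1 and 5530601H04Rik have no allele reads in the table, so their expression from the mus X was not analysed here.

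In the wild-type cells the mus share differed among the 5 genes. It was lowest for Med14, at 29.8% (95% Wilson interval 22.2 to 38.8, 114 reads) and 28.1% (22.6 to 34.3, 224 reads). It was 33.3 and 40.0% for Ddx3x, 38.7 and 41.9% for Kdm5c, and 40.0 and 43.1% for Kdm6a. It was highest for 1810030O07Rik, at 46.9% (33.7 to 60.6) and 51.5% (39.8 to 62.9), where neither parent was clearly ahead. Med14 thus lay below the other 4 genes in both WT libraries, and the ranges of Kdm6a, Kdm5c and Ddx3x met or overlapped. Intervals cover counting error only.

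In line 1 the share of Med14 rose and the shares of the others gave no call. The mus share of Med14 was 42.7 and 47.6% in line 1 and 34.1 and 35.1% in line 2, so both lines lay above WT without overlap, which in line 1 was so for 9.93% of the 151 genes tested, as in line 2. The log2 mus to cas ratio of Med14 changed by 1.07 (SE 0.26, 95% interval 0.56 to 1.58, adjusted p = 0.00241 over 151 genes) in line 1, by edgeR's quasi-likelihood test on allele reads. This test shared its estimate of spread across the genes tested, so its interval and p do not rest on the spread of Med14 alone. Med14 was 1 of 3 genes called, 1.99% of those tested, and all 3 were higher. In line 2 the change of Med14 was 0.39 (SE 0.27, 95% interval -0.14 to 0.92, adjusted p = 1), with 0 of 151 genes called and 3 at an unadjusted p under 0.05. The difference between the lines for Med14 was -0.68 (SE 0.25, adjusted p = 0.272) and did not pass, but it was -0.69 with adjusted p = 0.0274 with the replicate block, where 2.65% of the genes passed, and -0.77 with adjusted p = 0.0149 without line 1 replicate 1.

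The reads behind the share of Med14 differed by parent. Scaled to the library size behind the CPM (RPM, allele reads for every 1e+06 of the TMM-scaled exon library), mus reads of Med14 were at 8.59 and 10.1 in the WT libraries, at 13.5 and 24.6 in those of line 1 and at 11.1 and 12.8 in those of line 2. Its cas reads were at 20.2 and 25.8 RPM in the WT libraries, at 18.1 and 27.0 in those of line 1 and at 21.6 and 23.7 in those of line 2. The mus reads of line 1 lay above WT, 2.04 times its mean, while the cas reads of all groups overlapped. The share of all 151 genes whose mus or cas RPM lay apart from WT was not computed. The 2 libraries of line 1 lay further apart in mus reads than those of WT or line 2. The call of Med14 was lost without WT replicate 1 (adjusted p = 0.112), WT replicate 2 (0.781) or line 1 replicate 2 (0.219), and with scaling factors computed over the allele columns (shift 0.87, adjusted p = 1). The total RNA of Med14 gave no call, as above.

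The gene beside it, 1810030O07Rik, had a mus share of 72.7 and 58.9% in line 1 and 57.6 and 52.0% in line 2, again above WT without overlap in both lines. This gene rests on few reads, with 23 and 35 mus reads in the WT libraries. Line 1 replicate 1 had 40 mus and 15 cas reads, and replicate 2 had 93 and 65. The change of its log2 ratio in line 1 was 0.76 (SE 0.39, 95% interval -0.02 to 1.53, adjusted p = 1) and that in line 2 was 0.26 (SE 0.41, adjusted p = 1). Its mus reads were at 5.81 and 5.60 RPM in the WT libraries, at 10.8 and 12.7 in those of line 1 and at 8.24 and 7.19 in those of line 2. These did not overlap WT in either line, whereas its cas reads did, with 6.57 and 5.28 RPM in the WT libraries, 4.05 and 8.87 in those of line 1 and 6.06 and 6.63 in those of line 2. How many of all genes lay apart from WT in RPM was, again, not computed. The mean of the mus reads in line 1 was 2.06 times that of WT. Med14 and 1810030O07Rik are adjacent, so they are not independent examples.

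Kdm5c had a mus share of 41.9 and 43.5% in line 1 and 35.0 and 36.1% in line 2. Line 1 lay just above both WT libraries and line 2 below both, with changes of the log2 ratio of 0.14 (SE 0.27) and -0.30 (SE 0.27), both at adjusted p = 1. Kdm6a, which rests on only 34 to 77 reads a library, had 44.7 and 42.9% in line 1 and 32.4 and 37.5% in line 2. Its changes were 0.10 (SE 0.47) and -0.37 (SE 0.49), again at adjusted p = 1, and line 2 lay below WT without overlap. Shares below both WT libraries in line 2 were found for 11.9% of the 151 genes. Ddx3x had 38.5 and 47.1% in line 1 and 34.3 and 38.5% in line 2, overlapping WT in both, with changes of 0.39 (SE 0.27) and -0.03 (SE 0.27).

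Read together, the changes of the log2 ratio in line 1 were above 0 for 5 of 5 genes, with a median of 0.39, against 73 of 151 genes and a median of -0.05 over all genes tested. That count depends on the scaling: with factors computed over the allele columns Kdm6a (-0.01) and Kdm5c (-0.04) were below 0, which left 3 of 5 with a median of 0.21, against 65 of 151 and -0.06. Among the 13 other Biallelic genes 5 were above 0, with a median of -0.09. In line 2 the changes were above 0 for 2 of 5 genes (3 of 5 with scaling over the allele columns). Without that scaling they ran from -0.37 for Kdm6a to 0.39 for Med14, with a median of -0.03. The median over all 151 genes was the same value, because Ddx3x is the middle gene of both sets. The ratio of line 1 to WT ranged over the 5 genes from 1.01 to 2.06 for mus reads (RPM) and from 0.903 to 1.09 for cas reads. From line 1 to line 2 the log2 ratio was lower for 5 of 5 genes, from -0.68 for Med14 to -0.42 for Ddx3x, and none was among the 2 genes called, 1.32% of those tested. It was higher for 71 of all 151 genes (median -0.04) and for 9 of the 13 other Biallelic genes. With scaling over the allele columns the differences of the 5 genes were -0.38 to -0.12, while the median of all 151 genes moved to 0.18. Both counts of 5 of 5 rest on the same line 1 libraries, so neither is independent of the other. The 5 genes were read in the same libraries and include the adjacent Med14 and 1810030O07Rik, so they are not repeats of a condition.

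**Figure D4:**
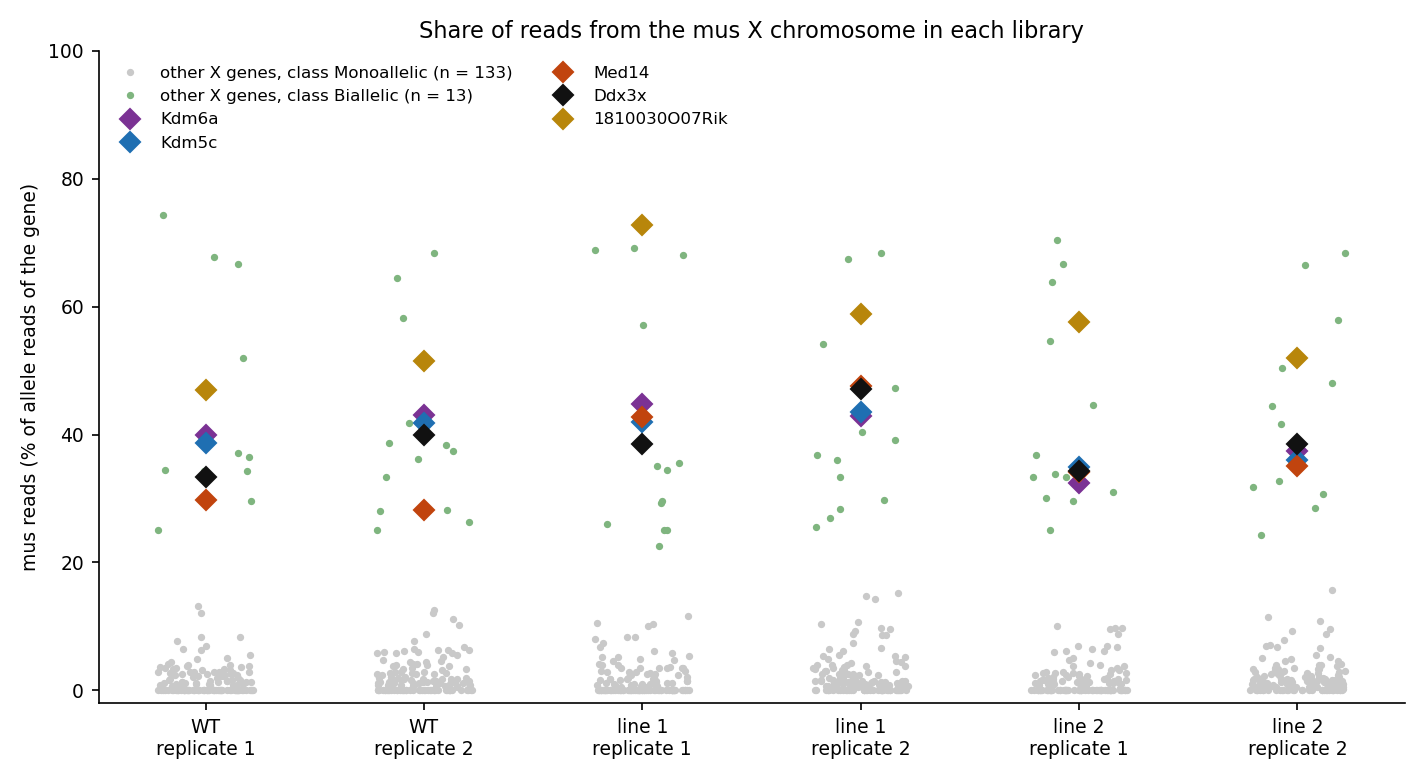
Mus share of allele reads in each library, in percent, for the 5 genes (diamonds) and for the other X-linked genes with at least 20 allele reads in every library (dots, coloured by the authors' class). The 5 genes lie between 28.1 and 72.7% and the median of the 146 other genes is 0.886 to 1.58%. Some dots of the class Biallelic lie among the diamonds in every library. Med14 is the lowest diamond in both WT libraries but not in line 1.

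**Figure D5:**
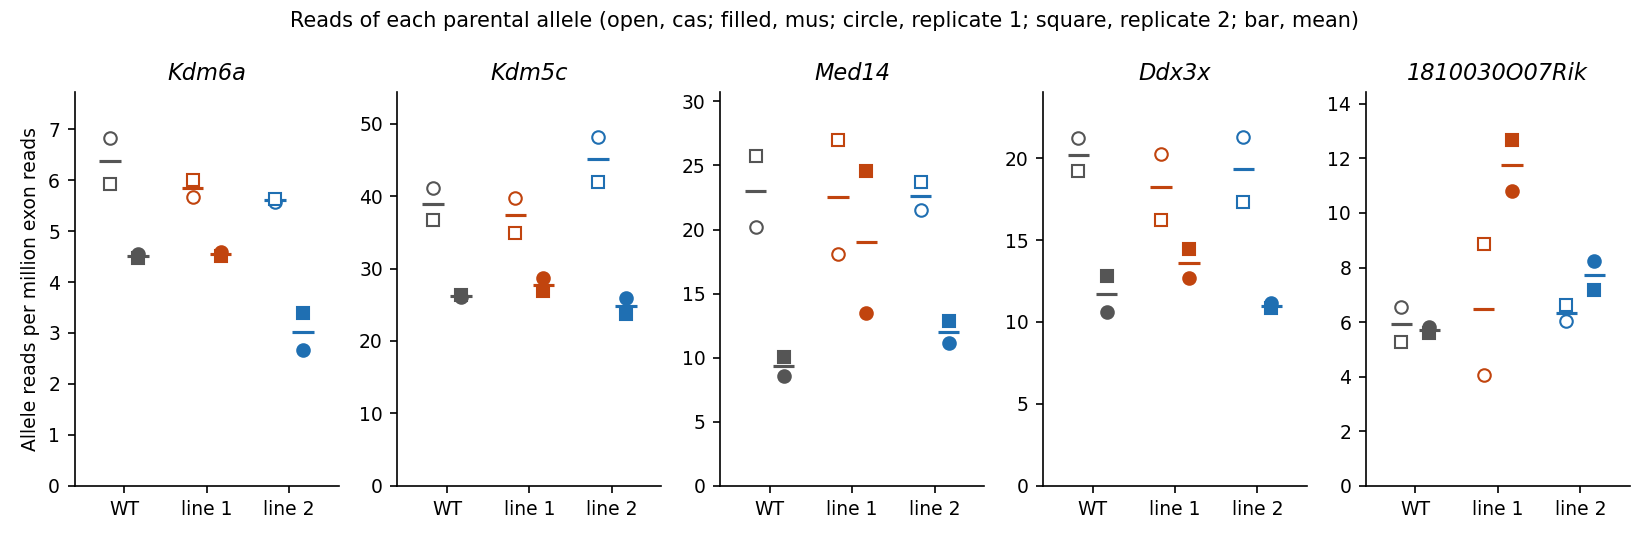
Reads of the cas allele (open) and the mus allele (filled) in RPM for the 5 genes, by library, with means as bars; axes start at 0. Mus reads of Med14 and 1810030O07Rik lie higher in both lines than in WT, most in line 1, while their cas reads overlap between groups. The share of all genes with such a separation in RPM was not computed.

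Genes beside them on the X had few reads from the mus X. The nearest genes with enough allele reads on either side of each of the 10, leaving out Med14 and 1810030O07Rik themselves, were 12 genes, all classed Monoallelic, with WT mus shares from 0 to 10.4%. Iqsec2, 7.99 kb from Kdm5c, had a mus share of 1.28% ± 1.81 (SD, n = 2) in WT and 0% in both lines. On the other side of Kdm5c, at 57.8 kb, Tspyl2 had 1.22% ± 1.72. Atp6ap2, 37.8 kb from 1810030O07Rik, had the highest share of the 12 in WT, 10.4% ± 2.32, and 8.96% in line 1 and 3.85% in line 2. Beyond Med14 and before Ddx3x, Usp9x had 2.71% ± 0.0365. Zdhhc9, 48.2 kb from Utp14a, had 0.394% ± 0.557, and Elf4 on its other side 0.309% ± 0.436. Magee1, next to Pbdc1, and Pdk3, below Zfx, had 0% in WT, and Maged1, above Eif2s3x, 0.976% ± 0.217. Cask, between Ddx3x and Kdm6a, had 1.27% ± 0.192, and Ndufb11, 2335 kb beyond Kdm6a, 7.74% ± 0.0604.

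Other genes reported to escape elsewhere had few mus reads. Of a list of 28 symbols 25 were in the exon table and 24 were tested, and 0 of them passed the test of total RNA in either line, against the 14.3% and 3.58% of all genes (3 and 2 at an unadjusted p under 0.05 in line 1 and line 2, and median log2 fold changes of 0.01 and -0.02). With the replicate block 6 of the 24 passed in line 1 and 1 in line 2. The 16 with enough allele reads were all classed Monoallelic, with WT mus shares from 0 to 10.4% and a median of 2.41%. The genes whose mus shares over the 6 libraries were closest to the median of the 5 were Nono, with a mean absolute difference of 3.72 percentage points, Wbp5 (4.95), Naa10 (7.07), Cxx1b (7.84) and Rbm10 (7.94). Nono had mus shares of 37.6% ± 1.55 in WT, with 41.4% in line 1 and 40.6% in line 2. All 5 belong to the class Biallelic.

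Partners of the encoded proteins and genes related to them were read against the same shares of all genes called, 14.3% in line 1 and 3.58% in line 2. Of 17 genes listed for eIF2, its exchange factor, its kinases and related factors, 2 were higher in line 1 and 0 in line 2. Eif2ak2, the eIF2 kinase that double-stranded RNA activates and interferon induces, rose from 93.5 and 89.5 CPM in WT to 278 and 154 in line 1 (log2 fold change 1.23, SE 0.28, adjusted p = 0.0327), and had 125 and 105 in line 2. Eif2d, one of the related factors, which delivers initiator tRNA, rose from 67.2 and 66.6 to 94.3 and 96.9 CPM in line 1 (0.52, SE 0.12, adjusted p = 0.0406). Of 11 partners of KDM5C, 1 was lower in line 1: Ehmt1, a histone H3 lysine 9 methyltransferase, at 170 and 175 CPM in WT and 125 and 133 in line 1 (-0.42, SE 0.10, adjusted p = 0.0468). In neither line did any of 34 tested genes of the small-subunit processome pass (2 and 0 at an unadjusted p under 0.05 in line 1 and line 2). The same was so for 32 other Mediator genes (3 and 3), 9 genes of the COMPASS complex that holds KDM6A (0 and 0) and 4 tested paralogs (1 and 0). The median log2 fold changes of these lists lay between -0.10 and 0.15. With the replicate block, where 32.4% and 12.1% of all genes passed, the counts in line 1 and line 2 were 3 and 0 of 17 for eIF2, 5 and 1 of 34 for the processome, 4 and 1 of 32 for Mediator, 1 and 1 of 9 for COMPASS, 1 and 0 of 4 for the paralogs and 1 and 0 of 11 for the partners of KDM5C.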

How the data were processed

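RNA-seq of 6 libraries was analysed, with the authors' lists of classed X-linked sites. The exon values, per transcript, are expected counts (steps of 0.5) that the authors made with HOMER without normalization, per the file headers. The allele values are deposited expected counts per parental allele, with 0.5 as the lowest value. The deposited mus fraction divides mus reads by cas plus mus reads, and the deposited class scores were not used. For RNA, the submitters' processing notes name mm10, TopHat2, HOMER, SAMtools, bedtools 2.25.0 and Trim Galore 0.4.1, and for the sites also edgeR, MACS2, Novoalign 3.00.02 and Bowtie2 2.2.7. Their roles, the strand setting of the counting and the way classes were assigned are not stated, so reads from an overlapping antisense transcript cannot be told apart.

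The design assumed counts, but the values are expected counts, so exon values were rounded with 0.5 upward and allele values with 0.5 downward. The transcript with the highest total stood for each of 24470 symbols, and 12910 genes passed filterByExpr. The quasi-likelihood fit of edgeR 4.0.16 (R 4.3.3) held the 6 libraries together, with TMM scaling, a mean per group, 3 residual degrees of freedom and Benjamini-Hochberg adjustment at 0.05. The allele fit used 151 X-linked genes with at least 20 allele reads in every library, a term per library and a mus term per group, and equal library sizes for both alleles. It too had 3 residual degrees of freedom per gene. Its intervals are as narrow as those of a spread shared across all genes tested, so they and its p-values do not follow a gene's own replicates. CPM and RPKM are from the TMM-scaled libraries. Both fits were also run on simulated data. These had no variation shared by replicate number, 1 spread for all genes in the RNA counts and counting error alone in the allele reads. They therefore cannot show the error rates in these libraries. Positions are 1-based, and promoter sequences are RefSeq's on GRCm38.p6. All 10 genes matched by symbol there.

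Alternatives were DESeq2 1.42.0, its size factors, no filter, the first transcript, the compared groups alone, replicate number as a block, other read minimums, scaling over allele columns, other windows around starts, and leaving out each library. The genes, the lists and the tests were chosen with earlier results of these data known. Named genes were Xist, the 10 genes, up to 3 called genes per list, the nearest genes with allele reads on either side of each gene, and the 5 genes closest in mus share. Paralogs that may share reads (Zfa-ps, Utp14b) were named after their values were seen. Replicates are separate samples by the protocol. The labels name no batch, but differences between replicates 2 and 1 correlated in all 3 pairs of groups (Pearson's r across 12910 genes 0.54, 0.594 and 0.528). The numbers were therefore taken to pair the libraries. Unless the block is named, the fits hold no term for this pairing. The calls with the block are given beside theirs. Replicate 1 was the shallower in every group, and depth and any shared batch cannot be told apart. Per-sample tracks, siRNA samples and ATAC-seq of line 2 were not used here.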

Additional observations from a re-analysis of the deposited data

Results flagged for a closer look

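The mus share of Kdm5c lay on opposite sides of WT in the lines. Both line 1 libraries (41.9 and 43.5%) lay above both WT libraries (38.7 and 41.9%) and both line 2 libraries (35.0 and 36.1%) below them. The log2 mus to cas ratio differed by -0.44 (line 2 minus line 1, SE 0.26, 95% interval -0.96 to 0.08), with an unadjusted p of 0.0988 and an adjusted p of 1 over 151 genes in edgeR, so this difference did not pass the test. The margin between line 1 and WT was 41.8972 against 41.8782%. The log2 ratio of Kdm5c changed against WT by 0.14 (SE 0.27) in line 1 and by -0.30 (SE 0.27) in line 2, both at adjusted p = 1. With scaling over the allele columns these were -0.04 and -0.20, both below 0.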

How the results depend on the processing

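Both calls made on these genes without the replicate block kept their direction in every alternative tried. The RNA of 1810030O07Rik in line 1 was 0.69 with WT and line 1 fitted alone (adjusted p = 0.0897) and 0.49 to 0.85 without single libraries. The allele shift of Med14 in line 1 was 0.87 with scaling over the allele columns (adjusted p = 1), and 0.89 to 1.17 without single libraries. Where an arm had 1 library left, it was assumed to vary like the other groups. Genes called over the whole table moved more. Line 2 against WT gave 948 without the filter, 792 with the compared groups alone and 23 to 52 without single libraries. Line 1 against WT gave 718 to 2365 and line 2 against line 1 601 to 1993 without single libraries. Allele calls were 1 to 3 without single libraries in line 1 and between the lines, and 1 between the lines with those groups alone. A Biallelic BRG1 site lay within 10 kb of the start or in the body of 5 of the 10 genes. The share was 3.13% of the 415 X-linked genes with tested expression, these genes included. When only sites within 2 kb of a start counted, the 5 fell to 2 of the 10, against 0.964% of the 415.

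With replicate number as a block, 4183 genes were called in line 1, 1565 in line 2 and 3506 between the lines, and 4 allele ratios between the lines. Under that block Pbdc1 (0.56), 5530601H04Rik (0.87) and 1810030O07Rik passed in line 1, Utp14a (-0.50) and 5530601H04Rik (0.77) in line 2, and Utp14a (-0.64), 1810030O07Rik (-0.38), Kdm6a (-0.27) and the allele ratio of Med14 (-0.69) between the lines. The block changed no other call on these genes.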
